A study of Mus musculus with 6 samples.

Results

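The extracellular matrix genes described here encode collagens, laminins, nidogens, fibrillins, fibulins, fibronectin, thrombospondins, tenascin C, matrilins, hyaluronan link proteins, the small proteoglycans lumican and decorin, and the ADAMTS family of secreted metalloproteinases. They were chosen by gene symbol from the lists of called genes, and 11 of the 1167 genes in those lists had such a symbol. RefSeq annotates 103 mouse genes with these symbols, so the other 92 were not listed, which may mean that they missed the authors' threshold or were not measured. Because being listed was part of the choice, the number of members listed is a description and not a result.

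Poly(A) RNA was sequenced from otocysts, the epithelial vesicles that give rise to the inner ear, taken from mouse embryos of the B6129SF1/J strain at embryonic day 10.5. The wild type group (Chd7+/+), the heterozygous group (Chd7Gt/+) and the homozygous group (Chd7Gt/Gt) had 2 libraries each and carried 0, 1 and 2 copies of the Gt allele, a gene trap in mouse nomenclature, of the chromatin remodeller gene Chd7. Each mutant group was compared by the authors with the same wild type libraries, which gave 1085 genes in homozygotes and 138 in heterozygotes. The lists hold no level for a library, so depth is unknown and the folds carry no SD. For the same reason no single library could be checked against markers of its tissue. Nothing in the labels says that the libraries of a group came from separate embryos, and the adjusted p-values then measure only the spread between these libraries, which may be technical. Of 18 markers of the neural tube, a tissue outside the vesicle, 6 were listed as lower and 0 as higher in heterozygotes. In homozygotes 2 were lower and 1 higher. Over all protein-coding genes 0.616% were listed in heterozygotes and 4.75% in homozygotes, and the marker list was not tested. In whole samples, fewer cells of a type, less RNA per cell and a different share of neighbouring tissue cannot be told apart. Xist, a transcript made in female cells, was listed as higher in homozygotes and was not listed in heterozygotes. Its log2 fold in homozygotes was 9.64, with an adjusted p given as 0 in the authors' deposited table. Embryo sex is not among the sample labels used here. In the homozygous folds a difference in sex thus cannot be told apart from genotype. Chd7 itself was listed as lower in both mutant groups, at 67.1% of wild type with 1 trapped allele and 22.4% with both, per the authors' deposited table.

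The matrix around a developing epithelium has a layered build. Laminin trimers and type IV collagen form the basement membrane sheet at the base of the cells, and nidogen links both. Beyond it, mesenchymal cells lay down fibrils of fibrillar collagen whose spacing and surface are set by fibril-associated collagens and small leucine-rich proteoglycans. Collagen chains are hydroxylated in the endoplasmic reticulum before they fold into triple helices, and they are crosslinked outside the cell. The otic vesicle sits on such a basement membrane, and the mesenchyme around it later forms the cartilage of the otic capsule.

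Of the 11 members, 9 were listed in homozygotes and 4 in heterozygotes, with 2 genes, Lum and Col15a1, in both. For background, 4.75% of all RefSeq protein-coding genes were listed in homozygotes and 0.616% in heterozygotes, from which nothing is read since the members were chosen from the lists. Direction was not part of the choice. In homozygotes 6 members were lower and 3 were higher, where 61.7% of all listed genes were lower and 38.3% higher. In heterozygotes all 4 listed members were lower, against 68.8% of all listed genes. The homozygous split stands near that of the whole list. The heterozygous split rests on 4 genes, too few to set it apart from the list, and neither split was tested. The lower members in homozygotes had a median log2 fold of -1.22, beside -1.35 for all 669 lower genes, and the higher members had 0.99, beside 1.31 for all 416 higher genes, from the authors' deposited table. In heterozygotes the members had a median log2 fold of -0.66, beside -0.72 for all 95 lower genes, from the authors' deposited table.

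**Figure D1:**
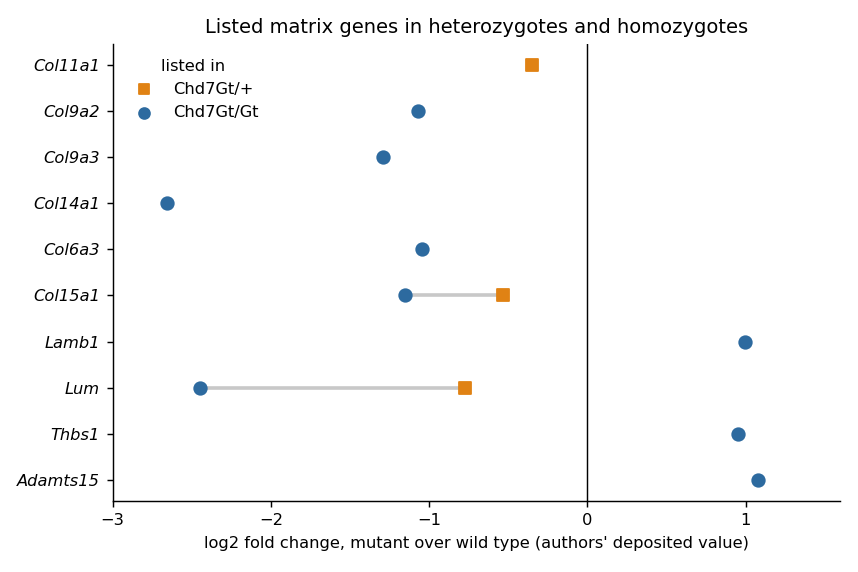
Log2 fold change over wild type (x axis, the authors' deposited table) of 10 listed matrix genes (rows), with squares for Chd7Gt/+ and circles for Chd7Gt/Gt; a grey line joins a gene listed in both, and a missing symbol means not listed. The 6 collagens and Lum lie left of 0 wherever they are listed, and Lamb1, Thbs1 and Adamts15 lie right of it.

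All the collagen chains that were listed were lower, in either genotype. Of all listed genes, 61.7% were lower in homozygotes and 68.8% in heterozygotes, and the difference was not tested. RefSeq annotates 44 collagen genes of this name pattern, of which 5 fell in homozygotes, 2 fell in heterozygotes, none rose and 38 were not listed. Across all protein-coding genes 4.75% were listed in homozygotes and 0.616% in heterozygotes, and nothing is read from these counts. The listed chains came from 4 of the matrix classes, with Col11a1 as the only one of 11 fibrillar collagen genes. Col1a1, Col1a2, Col2a1 and Col3a1, which encode the chains of the most abundant fibrils, were not listed in either genotype. None of the 6 type IV collagen genes of the basement membrane was listed either.

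The fibril-associated collagens had 3 of 9 annotated genes listed in homozygotes, all 3 lower, and none in heterozygotes. Across all protein-coding genes 4.75% were listed in homozygotes, 61.7% of that list being lower, and 0.616% in heterozygotes. The class was not tested against these shares, and its listed genes were chosen from the lists. Col14a1 encodes type XIV collagen, which binds along the surface of type I fibrils. It stood at 15.9% of wild type in homozygotes (log2 -2.66, adjusted p 0.000586, per the authors' deposited table), the lowest level of any member. Of the 669 lower genes, 50 had a larger fall. Col9a2 and Col9a3 encode a pair of the chains of type IX collagen, which coats the fibrils of cartilage and of the tectorial membrane of the cochlea. Col9a3 stood at 40.8% of wild type (log2 -1.29, adjusted p 0.0131, per the authors' deposited table). Col9a2 stood at 47.6% of wild type (log2 -1.07, adjusted p 0.0265, per the authors' deposited table). Both chains were thus lower by a similar amount, near the middle of the lower list, where 352 and 424 of the 669 genes fell further than Col9a3 and Col9a2. Col9a1, which encodes the remaining chain of the trimer, was not listed.

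Outside this class, Col6a3 and Col15a1 fell in homozygotes. Col6a3 encodes a chain of type VI collagen, which assembles into beaded microfilaments near the cell surface, and stood at 48.5% of wild type (log2 -1.04, adjusted p 0.0268, per the authors' deposited table). Its partner genes Col6a1 and Col6a2 were not listed. Col15a1 encodes a collagen that carries sugar side chains and lies where basement membranes meet the fibrils beneath, above all around vessels and muscle. It stood at 69.0% of wild type in heterozygotes (log2 -0.53, adjusted p 0.000801, per the authors' deposited table) and at 44.9% in homozygotes (log2 -1.15, adjusted p 0.0139, per the authors' deposited table). The fold was larger in homozygotes, yet the adjusted p was smaller in heterozygotes.

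Lum had a wider gap between the genotypes than Col15a1. Lum encodes lumican, a small leucine-rich proteoglycan that regulates the spacing of collagen fibrils. Among the 6 annotated link protein and small proteoglycan genes chosen, only Lum was listed, Dcn being among those not listed. Across all protein-coding genes 4.75% were listed in homozygotes and 0.616% in heterozygotes. Lum stood at 58.4% of wild type in heterozygotes (log2 -0.78, adjusted p 0.0124, per the authors' deposited table) and at 18.3% in homozygotes (log2 -2.45, adjusted p 0.00022, per the authors' deposited table). The homozygous value was lower by 1.67 on the log2 scale for Lum and by 0.62 for Col15a1, from the authors' deposited table. Across the 43 genes listed as lower in both genotypes the median of this difference was -0.78 in log2 units, per the authors' deposited table, with 11 genes beyond Lum and 26 beyond Col15a1. Both comparisons use the same wild type libraries, and the difference between the genotypes was not tested. The genes listed in both were 2 of the 9 homozygous and 2 of the 4 heterozygous members, and for all genes 5.16% of the homozygous and 40.6% of the heterozygous list.

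Col11a1 was listed in heterozygotes and not in homozygotes. It encodes a chain of type XI collagen, which forms the core of cartilage fibrils and is mutated in syndromes with hearing loss, and stood at 78.6% of wild type (log2 -0.35, adjusted p 0.0425, per the authors' deposited table). This lies just inside the authors' threshold, as the largest adjusted p in the heterozygous lists is 0.0443. In homozygotes the member nearest to the threshold was Adamts15. Absence from the homozygous list does not show that Col11a1 was at wild type level there. Folds as small as that of Col11a1 made up 13.8% of the heterozygous list and 3.04% of the homozygous list (19 of 138 and 33 of 1085 genes), a difference in share that was not tested.

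**Figure D2:**
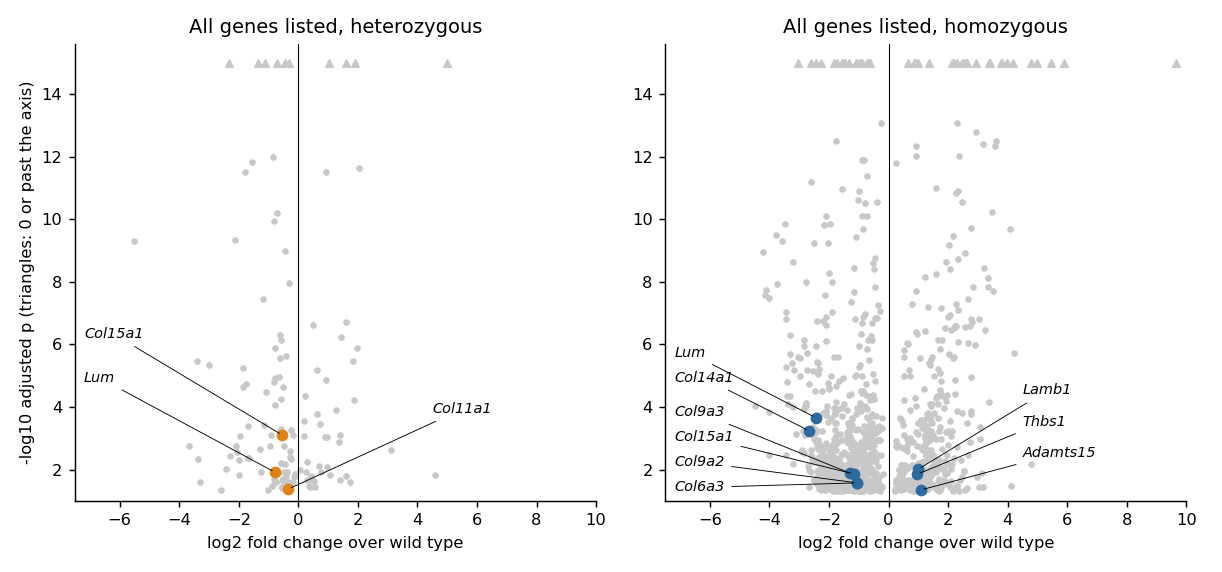
Each point is a gene of the authors' deposited table, with its log2 fold change over wild type (x axis) and -log10 of its adjusted p (y axis); grey triangles at the top have an adjusted p of 0 or past the axis, and coloured, named points are 10 matrix genes. Lum and Col14a1 in homozygotes and Col15a1 in heterozygotes stand above the other members, most of which lie low on the y axis.

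The 3 members that rose did so in homozygotes and are not collagens. Lamb1 encodes a beta chain found in most laminins of embryonic basement membranes, and was 1.99-fold higher (log2 0.99, adjusted p 0.00986, per the authors' deposited table). Thbs1 encodes thrombospondin, a secreted glycoprotein that inhibits vessel growth and activates latent TGF-beta, and was 1.93-fold higher (log2 0.95, adjusted p 0.0144, per the authors' deposited table). Adamts15 encodes a protease that cleaves versican and aggrecan, and was 2.11-fold higher (log2 1.08, adjusted p 0.0452, per the authors' deposited table). The rises were alike in size, and 65.1% to 73.1% of the 416 higher genes rose further. Each was the single listed gene of its family in homozygotes, among 11 laminin, 4 thrombospondin and 24 ADAMTS and ADAMTS-like genes annotated. Across all protein-coding genes 4.75% were listed in homozygotes, and nothing is read from these counts. Fn1, Tnc, the matrilins, the nidogens and the 6 fibrillin and fibulin genes were not listed in either genotype.

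The members' adjusted p-values were larger than those of the lists as a whole. The median adjusted p was 0.0139 for the 9 members in homozygotes, beside 0.00436 for all 1085 genes, and 0.0275 for the 4 in heterozygotes, beside 0.0018 for all 138, from the authors' deposited table. An adjusted p under 0.01 was held by 3 of the 9, Lum, Col14a1 and Lamb1, and by 1 of the 4, Col15a1. Over all genes it was held by 59.6% of the homozygous and 63.0% of the heterozygous list.

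Sequence upstream of the start is shown for 3 members whose folds went different ways, Col15a1 (lower in both genotypes), Col9a2 (lower in homozygotes) and Lamb1 (higher in homozygotes). RefSeq promoter windows of build GRCm38.p6 were matched for 5 of the 11 members, the others with a window being Col6a3 and Col11a1. Each line gives the 250 bases before the annotated start, 5′ to 3′ on the strand of the gene, in lower case, with GC boxes in capitals, of which Col15a1 has none.
Col15a1: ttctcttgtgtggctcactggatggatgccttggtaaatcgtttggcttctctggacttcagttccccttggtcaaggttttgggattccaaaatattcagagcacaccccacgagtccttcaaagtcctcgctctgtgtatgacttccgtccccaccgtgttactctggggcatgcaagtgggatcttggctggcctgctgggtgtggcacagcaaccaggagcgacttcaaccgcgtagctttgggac
Col9a2: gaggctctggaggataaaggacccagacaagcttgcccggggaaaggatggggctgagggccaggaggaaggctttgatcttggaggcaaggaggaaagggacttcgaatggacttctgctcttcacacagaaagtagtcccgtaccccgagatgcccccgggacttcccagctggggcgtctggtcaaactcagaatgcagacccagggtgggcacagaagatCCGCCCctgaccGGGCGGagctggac
Lamb1: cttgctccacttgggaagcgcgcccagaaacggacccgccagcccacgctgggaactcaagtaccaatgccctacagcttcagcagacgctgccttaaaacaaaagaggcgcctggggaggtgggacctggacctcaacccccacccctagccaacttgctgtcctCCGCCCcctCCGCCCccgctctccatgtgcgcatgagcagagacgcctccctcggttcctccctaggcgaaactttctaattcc
The windows lie at chr4:47207762-47208011 (plus strand) for Col15a1, chr4:121039316-121039565 (plus strand) for Col9a2 and chr12:31265043-31265292 (plus strand) for Lamb1. The GC box, GGGCGG on either strand and the binding sequence of SP factors, was in 3 of the 5 windows, those of Col9a2, Lamb1 and Col11a1, and in 32.7% of all 32841 windows of this length. In Col9a2 it came at 26 and 14 bases before the start, and in Lamb1 at 84 and 75 bases. The core AGGTCA bound by nuclear receptors, those for retinoic acid among them, was in the window of Col11a1 alone, beside 14.0% of all windows. The TATA box letters TATAAA (12.4% of all windows), the core ACGTG bound by hypoxia-inducible factors (16.6%) and the core ACAAAG shared by SOX and TCF/LEF factors (16.5%) were in none of the 5, on either strand. A GC box stood upstream of lower and of higher members alike, and these letters say nothing of whether a factor binds.

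Most of the listed genes for enzymes that modify collagen were higher in homozygotes. Of 28 genes for collagen folding, hydroxylation and crosslinking, 8 were listed as higher and 1 as lower in homozygotes, none in heterozygotes, and 19 in neither, and the listed genes had 1.12 as their median log2 fold, per the authors' deposited table. Over all genes, 4.75% of protein-coding genes were listed in homozygotes and 38.3% of those listed were higher, and the list was not tested against them. P4ha1 and P4ha2, which encode catalytic subunits of prolyl hydroxylase, rose 5.86-fold and 6.07-fold, each with an adjusted p given as 0 in the authors' deposited table. Plod2, a lysyl hydroxylase gene, rose 2.55-fold with an adjusted p given as 0, and Lepre1, a prolyl 3-hydroxylase gene, rose 1.44-fold with an adjusted p of 1.06e-05 in the authors' deposited table. The crosslinking enzyme genes Lox and Loxl2, the lysyl hydroxylase gene Plod1 and Pcolce, whose product aids removal of the procollagen tail, rose between 1.97-fold and 3.18-fold in the authors' deposited table. Bmp1, the protease that removes that tail, stood at 55.3% of wild type in the authors' deposited table. These 5 were named after their values were seen. P4ha1, P4ha2, Plod1, Plod2, Lox and Loxl2 are known as genes induced in low oxygen. Whether low oxygen had a part in these rises was not tested.

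**Figure D3:**
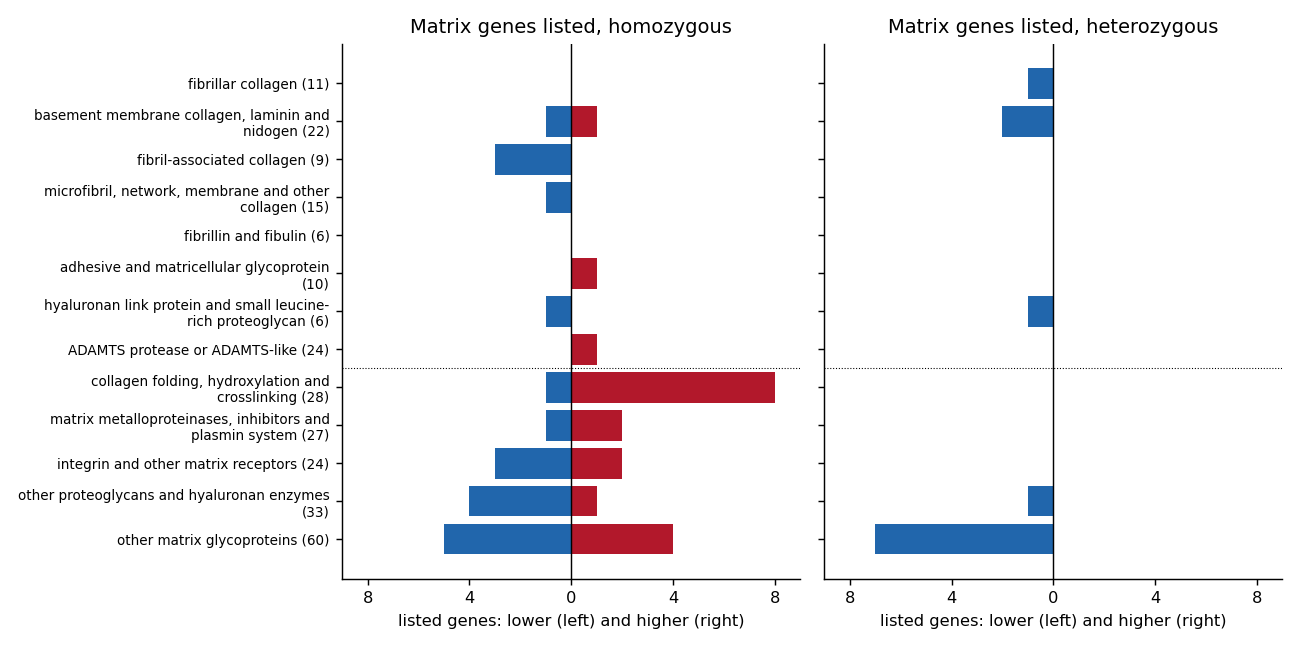
Number of listed genes that were lower (blue, left) and higher (red, right) in homozygotes and heterozygotes (x axes), for the 8 matrix classes above the dotted line and 5 lists of matrix partners below it, with the number of genes in each class or list in brackets. Fibril-associated collagens have 3 lower genes in homozygotes and collagen-modifying enzymes 8 higher and 1 lower, while no class or list has a higher gene in heterozygotes. Across all protein-coding genes 4.75% were listed in homozygotes and 0.616% in heterozygotes. Of all listed genes, 61.7% were lower in homozygotes and 68.8% in heterozygotes.

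Partners of the matrix outside the name pattern were listed in both directions in homozygotes. Their counts stand beside 4.75% of all protein-coding genes listed in homozygotes, where 61.7% of the list was lower. In heterozygotes 0.616% were listed, and 68.8% of that list was lower. Neither list of partners was tested against these shares. Of 33 other proteoglycan and hyaluronan enzyme genes, 4 were lower and 1 higher. Kera, which encodes keratocan, a small leucine-rich proteoglycan like lumican, stood at 18.9% of wild type, close to Lum (log2 -2.41, adjusted p 0.0177, per the authors' deposited table). Vcan, which encodes the large hyaluronan-binding proteoglycan versican, stood at 80.9% of wild type in heterozygotes and 70.4% in homozygotes (adjusted p 1.12e-08 and 0.000469 in the authors' deposited table). Ncan, the gene of the neural proteoglycan neurocan, fell to 28.7% and Sdc4, which encodes a cell surface syndecan, rose 4.77-fold in the authors' deposited table. Of 60 other matrix glycoprotein genes, 5 were lower and 4 higher in homozygotes and 7 were lower in heterozygotes. Postn, which encodes periostin, a protein that binds collagen and tenascin, stood at 60.8% of wild type in heterozygotes and 16.3% in homozygotes, with an adjusted p given as 0 in both in the authors' deposited table. These values lie next to those of Lum in both genotypes. Otol1 and Oc90, from the same list, stood at 5.64% and 21.7% of wild type in homozygotes, per the authors' deposited table. Svep1, the gene of a large secreted adhesion protein, was 2.73-fold higher in homozygotes, per the authors' deposited table.

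The lists of matrix receptors and of matrix proteases had called members in homozygotes and 0 in heterozygotes. Among all protein-coding genes, 4.75% were listed in homozygotes and 0.616% in heterozygotes. At the latter share lists this short would hold few or no calls, so nothing is read from the 0. Whether the genotypes differ in these lists was not tested. Of 24 integrin and other receptor genes 2 were higher and 3 lower. Itga8, which encodes an integrin chain that binds nephronectin, rose 3.18-fold, and the hyaluronan receptor gene Cd44 rose 2.31-fold in the authors' deposited table. Itga7, a laminin receptor chain, stood at 21.6% of wild type, and Itga4, a chain that binds fibronectin, at 46.8% in the authors' deposited table. Of 27 metalloproteinase, inhibitor and plasmin system genes 2 were higher and 1 lower. The inhibitor genes Timp3 and Timp1 rose 2.02-fold and 1.95-fold, and Mmp24, a membrane-bound metalloproteinase gene, stood at 13.8% of wild type in the authors' deposited table.

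Markers of cell types in and around the otocyst were also listed. Their counts stand beside 4.75% of all protein-coding genes listed in homozygotes, where 38.3% of the list was higher, and 0.616% listed in heterozygotes, where 68.8% of the list was lower, and no marker list was tested. Of 29 mesenchyme markers, Lum among them, 3 were lower and 3 higher in homozygotes, and 3 were lower and 1 higher in heterozygotes. The mesenchymal homeobox gene Prrx1 stood at 73.4% of wild type in heterozygotes and 53.9% in homozygotes, and Pou3f4, a gene of the mesenchyme around the otocyst, at 56.1% and 6.25%, in the authors' deposited table. Dlk1 was higher in both, at 1.32-fold and 3.05-fold in the authors' deposited table. Of 14 cartilage precursor markers 3 were lower in homozygotes and 2 in heterozygotes, and none was higher. They included Sox5 (45.2% of wild type) and Sox6 (58.1%), partners of SOX9 in switching on cartilage matrix genes, in homozygotes, and Barx1 in both (23.2% in heterozygotes and 13.5% in homozygotes), by the authors' deposited table. Of 23 endothelial and mural markers 6 were higher and none lower in homozygotes, among them Acta2 (10.2-fold), Tagln (7.68-fold) and Pecam1 (1.89-fold) by the authors' deposited table. Of 21 otic epithelium markers 4 were lower and none higher in homozygotes, with none listed in heterozygotes. Of 15 neural crest markers 1 was lower in homozygotes and 4 were higher in heterozygotes. Of 18 neural tube markers 2 were lower and 1 higher in homozygotes, and 6 were lower and 0 higher in heterozygotes. In heterozygotes Shh stood at 2.16% of wild type, Foxa2 at 9.34%, Nkx2-2 at 12.4% and Lhx4 at 9.6%, by the authors' deposited table. In homozygotes Wnt1 was 9.14-fold higher, and Isl1 and Lhx3 stood at 19.1% and 18.9% of wild type, by the authors' deposited table. Levels per library were not at hand, so the part of any of these cell types in the changes of the matrix genes was not tested.

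Transcript length is given because it moved with direction across the homozygous list. Taking each gene's longest annotated transcript, the median was 4868 nt for lower and 2698 nt for higher genes. Among the members the order ran the other way, as the 3 higher ones had a median of 5848 nt and the 6 lower ones 4109 nt. Of the 9 members, 6 were longer than the median of the list, 4092.5 nt, and these were 3 higher and 3 lower, whereas 81.3% of all longer listed genes were lower. Lum (2448 nt), Col9a2 (2924 nt) and Col9a3 (3046 nt) were the shorter members, all lower. The part of length in these folds was not tested.

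**Figure D4:**
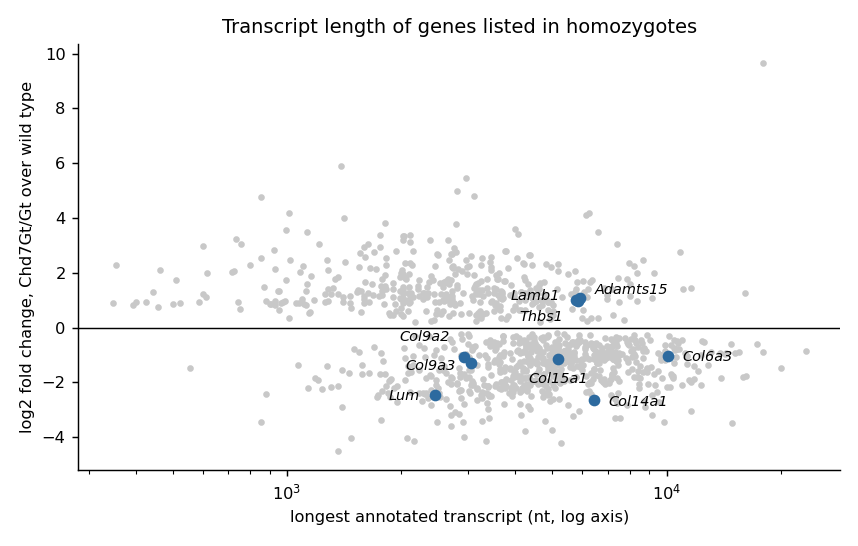
Longest annotated transcript in nt (x axis, log scale) and log2 fold change in homozygotes (y axis, the authors' deposited table) of each listed gene with a known length (grey), with the 9 matrix genes named. Lamb1, Thbs1 and Adamts15 lie above 0 at about the same length, from 5784 to 5928 nt, and Col14a1 and Col6a3 below 0 at greater length.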

How the data were processed

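Otocyst poly(A) RNA of 3 genotypes, 2 libraries each, was grouped by the genotype in the sample titles. The 4 deposited lists hold called genes with a log2 fold change of mutant over wild type, computed by the authors, and an adjusted p-value, also computed by the authors, all under 0.05. Per the submitters' processing notes, the tools were Bowtie2 2.0.6 and DESeq 1.22.1 and the build mm9, without their roles. How reads were counted, whether strand was used, which filters were set and how reads common to paralogues were treated is not given in the sources used here. The number of genes tested and the depth are unknown, so no interval is given.

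No test was run here: calls are the authors', and folds are 2 to the power of the deposited value. An adjusted p of 0 is printed as deposited. Symbols were matched to RefSeq GRCm38.p6, directly or by a synonym (1082 of 1085 homozygous, 138 of 138 heterozygous), and to GENCODE M21 for transcript length (1078 and 137), with Python 3.11.15. Members with the smallest adjusted p of each class and up to 4 genes of each other list are named, and others are said to be chosen after their values were seen. 1 member enters the counts and medians and is not reported here by name. The members and lists were chosen with earlier results of these data known. Ctnnd2, an intracellular catenin put in the glycoprotein list by mistake, was dropped after its value was seen. Alternatives tried were a stricter adjusted p, a fold limit, narrower and wider lists and longer genes. Counting and ranking steps were tested on simulated data.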

Additional observations from a re-analysis of the deposited data

How the results depend on the processing

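With all listed genes taken, 6 members were lower and 3 higher in homozygotes, 4 were lower in heterozygotes and 2 were lower in both. In that order, the counts were 2, 1, 1 and 0 at an adjusted p under 0.01, and 2, 0, 1 and 0 under 0.001. With a limit of 1 on the absolute log2 fold they were 6, 1, 1 and 0, and with collagen and laminin genes alone 5, 1, 3 and 1. Adding the other glycoprotein and proteoglycan lists gave 15, 8, 12 and 4. Among genes with transcripts longer than the median of their list they were 3, 3, 3 and 1. Without ADAMTS genes they were 6, 2, 4 and 2. At an adjusted p under 0.04, a setting chosen after seeing the data, they were 6, 2, 2 and 2, with Adamts15 and Col11a1 among those left out. These settings choose among deposited calls, so fewer or more genes enter by construction and no direction can change. Of 13 single values, 4 stayed past an adjusted p of 0.01, 3 past 0.001 and 8 past the fold limit. No paired analysis was possible because the lists hold no values per library, and leaving out single libraries was not run for the same reason.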

Other observations

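The heterozygous list held secreted guidance and adhesion proteins that the homozygous list did not. Ntn1, which encodes a laminin-related guidance cue, stood at 38.6% of wild type, Vtn, the gene of the adhesive glycoprotein vitronectin, at 33.8%, and Slit2, which encodes a repellent cue, at 56.3% in the authors' deposited table. Slit1 (67.7%) and Npnt, which encodes the integrin ligand nephronectin (74.6%), were named after their values were seen and come from the authors' deposited table. All 5 were absent from the homozygous list, while Postn and Sparcl1, from the same list of matrix glycoproteins, were in both. Of the whole heterozygous list, only 40.6% was also in the homozygous list, so absence from it was common. The neural tube markers Shh (2.16% of wild type), Foxa2 (9.34%) and Nkx2-2 (12.4%) were also listed in heterozygotes alone, while Lhx3 was lower in both. These values come from the authors' deposited table. Whether a different share of neural tube tissue had a part in these folds was not tested. The difference between the genotypes was not tested.

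Sparcl1, which encodes a secreted collagen-binding relative of SPARC, was named after its values were seen. It stood at 64.3% of wild type in heterozygotes (adjusted p 1.14e-05) and was 1.88-fold higher in homozygotes (adjusted p 0.0416), in the authors' deposited table.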
